A study of Mus musculus with 16 samples.

Results

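The mitochondrial genome transcripts described here are the messenger RNAs encoded on the circular DNA inside mitochondria (chromosome M), taken as every gene of the deposited table whose symbol starts with mt-. This rule found 13 of the 35275 gene IDs in the table, and all 13 were protein-coding. GENCODE M21 annotates 37 genes on chromosome M of GRCm38, of which the 2 ribosomal RNA and 22 transfer RNA genes were not analysed here. Of the 13 members, 12 reached 1 FPKM in at least 4 of 16 libraries and entered the test between groups, and mt-Atp8 did not.

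The series measured RNA in mouse liver by RNA-seq of total RNA, with 4 libraries in each of 4 groups. Wild-type mice received a control diet (WT control) or an ethanol diet (WT ethanol). Mice with a liver-specific deletion of Zfp36l1 received the same diets (LKO control and LKO ethanol). ZFP36L1 is a zinc-finger protein that binds AU-rich elements of messenger RNAs and promotes their decay. Strain, sex, age, the driver of the deletion, the composition of the diets and the feeding time were not given in the labels. The labels also do not say whether each library came from its own animal, so the p-values measure only the spread between these libraries.

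Mitochondrial DNA encodes a small set of subunits of the respiratory chain and of ATP synthase, while most subunits come from nuclear genes. Both strands are transcribed as long precursors, which are cut into separate RNAs mostly at the transfer RNAs that lie between the genes. mt-Nd6 is the member encoded on the light strand, opposite to the other 12. Fragments of mitochondrial DNA have also been copied into the nuclear chromosomes during evolution, and liver cells hold many mitochondria, so mitochondrial RNAs are among their most abundant transcripts.

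Neighbouring members overlap in places, and several have near-identical nuclear copies, so the sequences that bear on how a read can be assigned are shown first. All are transcript sequences of GENCODE M21 on GRCm38, written 5′ to 3′. The ends of mt-Nd5 (chrM:13506-13565, plus strand) and mt-Nd6 (chrM:13552-13611, minus strand) run into each other on opposite strands, and capitals mark the 14 bases they share as complements.
mt-Nd5 end: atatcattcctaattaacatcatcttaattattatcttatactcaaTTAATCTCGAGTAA
mt-Nd6 end: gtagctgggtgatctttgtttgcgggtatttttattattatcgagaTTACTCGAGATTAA

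The end of mt-Atp8 (chrM:7890-7969, plus strand) and the start of mt-Atp6 (chrM:7927-8006, plus strand) share 43 bases on the same strand, marked by capitals. mt-Atp8 is 204 bases long, so this stretch is a large part of it.
mt-Atp8 end: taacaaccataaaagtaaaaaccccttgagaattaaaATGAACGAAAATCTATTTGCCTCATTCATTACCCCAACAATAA
mt-Atp6 start: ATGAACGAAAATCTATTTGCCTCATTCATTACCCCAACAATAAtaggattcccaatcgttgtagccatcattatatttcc

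A block of pseudogenes on chromosome 1 (chr1:24611535-24616197, minus strand) copies mitochondrial genes from mt-Nd4 back to mt-Co1. The start of mt-Nd3 (chrM:9459-9518) and of its copy Gm28438 (chr1:24613060-24613119, minus strand) are shown with the base that differs in capitals. It is T3C, counted from 1 at the 5′ end of mt-Nd3, and the other 344 of 345 aligned bases are identical.
mt-Nd3 start: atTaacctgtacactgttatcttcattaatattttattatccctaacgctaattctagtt
Gm28438 start: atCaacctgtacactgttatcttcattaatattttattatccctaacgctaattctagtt

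The copy of mt-Co1, Gm29216 (chr1:24616138-24616197 for the stretch shown, minus strand), begins inside the gene. Against mt-Co1 (chrM:6381-6440) it has 6 mismatches in 492 aligned bases, T1056A, C1057T, A1059G, A1060G, C1062A and A1066T, counted from 1 at the 5′ end of mt-Co1 and marked by capitals.
mt-Co1 stretch: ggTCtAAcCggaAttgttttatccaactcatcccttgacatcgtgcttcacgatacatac
Gm29216 start: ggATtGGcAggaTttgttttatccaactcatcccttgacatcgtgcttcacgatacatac

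The other copies of short members in the block matched without a mismatch. Gm28661 matched 681 bases of mt-Co2, Gm10925 matched 678 bases of mt-Atp6, Gm28437 matched 783 bases of mt-Co3 and Gm10222 matched 294 bases of mt-Nd4l. Gm28439 matched 876 bases of the 1378 of mt-Nd4 without a mismatch.

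The members fell into sets of very different level. Levels are given as FPKM, counts scaled by gene length and by the library's read total, which can be compared between genes of different length. Over the 15 libraries other than WT ethanol library 2, which stood apart and is described below, 7 members lay between 1305 and 18611 FPKM and 5 between 6.76 and 205 FPKM. The 7 were mt-Nd1, mt-Nd2, mt-Nd4, mt-Nd5 and mt-Nd6 (subunits of complex I, the NADH dehydrogenase), mt-Cytb (cytochrome b of complex III) and mt-Co1 (the catalytic subunit of complex IV, cytochrome c oxidase). The 5 were mt-Co2 and mt-Co3 (the other mitochondrially encoded subunits of complex IV), mt-Atp6 (a membrane subunit of ATP synthase), and mt-Nd3 and mt-Nd4l (small subunits of complex I). Together the 5 held 0.182 to 0.650% of the mitochondrial reads over the 16 libraries.

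mt-Co1 had the highest median of the members, 11082 FPKM over the 15 libraries, followed by mt-Cytb at 6932, mt-Nd1 at 6334, mt-Nd2 at 5233, mt-Nd4 at 3149, mt-Nd6 at 2208 and mt-Nd5 at 1931 FPKM. The ranges of neighbours in this order overlapped. mt-Co1, for example, ran from 9014 to 18611 FPKM and mt-Cytb from 4926 to 11295 FPKM. In the lower set the medians were 129.3 FPKM for mt-Co2, 82.9 for mt-Atp6, 82.1 for mt-Co3, 26.0 for mt-Nd3 and 10.7 for mt-Nd4l. mt-Atp8, a small subunit of ATP synthase, had 0 to 6 reads per library and at most 1.31 FPKM.

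**Figure D1:**
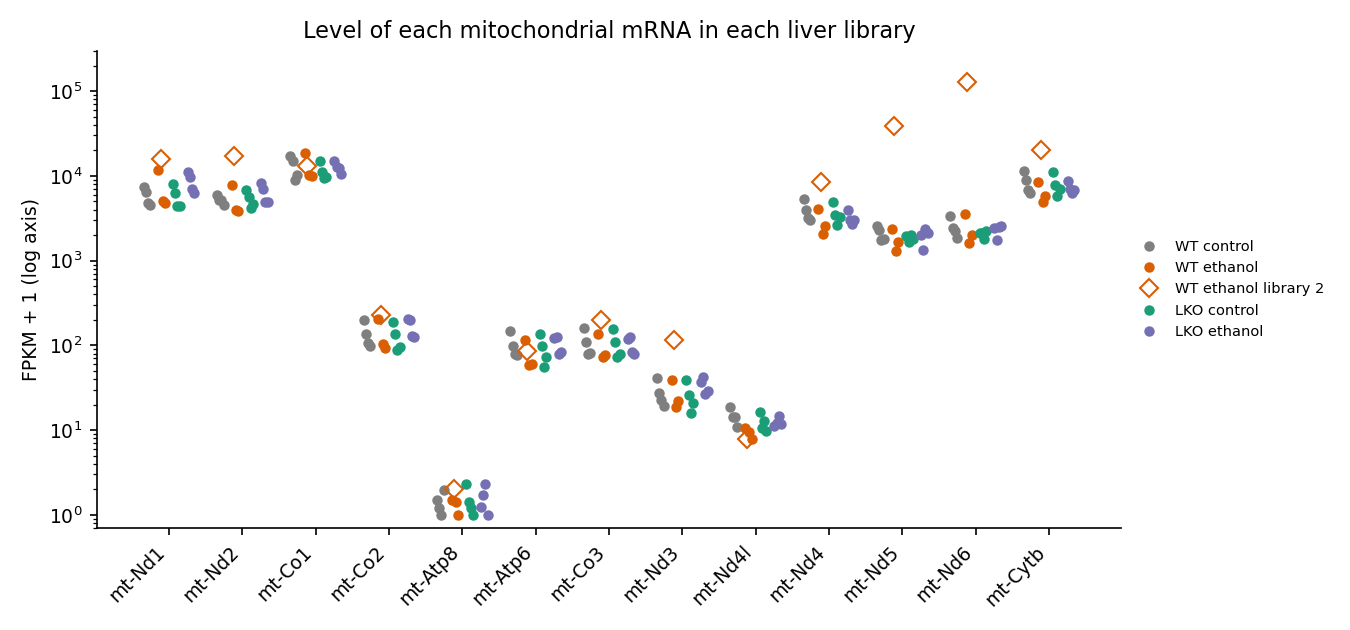
Level of each of the 13 members in each of the 16 libraries, as FPKM + 1 on a log axis, with members in the order of the genome, colors for the 4 groups and an open diamond for WT ethanol library 2. Of the members, 7 sit above 1000 FPKM and 5 between 6.76 and 229 FPKM, mt-Atp8 is at or below 1.31 FPKM, and the diamond is far above the other points for mt-Nd5 and mt-Nd6.

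The lower set was also the set with nearly complete nuclear copies. For each member, the share of its 50-base windows that also occur, letter for letter, in a transcript from another chromosome was counted. All 635 windows of mt-Co2 were shared, and the share was 99.9% for mt-Co3, 99.5% for mt-Atp6, 98.8% for mt-Nd4l and 98.0% for mt-Nd3. It was 62.2% for mt-Nd4 and 51.1% for mt-Co1, 8.2% for mt-Nd2, 7.6% for mt-Nd5 and 0% for mt-Nd1, mt-Nd6, mt-Cytb and mt-Atp8. Only annotated transcripts were searched, so copies outside annotated genes were not counted.

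In the chromosome 1 block, the copies of the lower members were listed at levels close to those of their mitochondrial gene or higher, and those of the higher members far lower. Gm28661 had 91.7 to 229 FPKM over the 15 libraries beside 86.3 to 205 FPKM for mt-Co2, and Gm10222 had 6.02 to 13.8 FPKM beside 6.76 to 17.8 for mt-Nd4l. Gm28438 had 30.3 to 139.2 FPKM beside 14.8 to 41.1 for mt-Nd3. Gm29216 had 74.8 to 213.8 FPKM beside 9014 to 18611 for mt-Co1, and Gm28439 had 23.8 to 51.3 beside 2083 to 5371 for mt-Nd4. How reads that match more than 1 place were counted is not given in the sources used here. Reads of these 5 members and of their copies cannot be told apart over nearly their whole length, so the levels of the 5 are uncertain. mt-Atp8 was low with none of its windows shared. Reads that lie over its overlap with mt-Atp6 can be assigned to either gene, and the part of that overlap in its level was not tested.

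**Figure D2:**
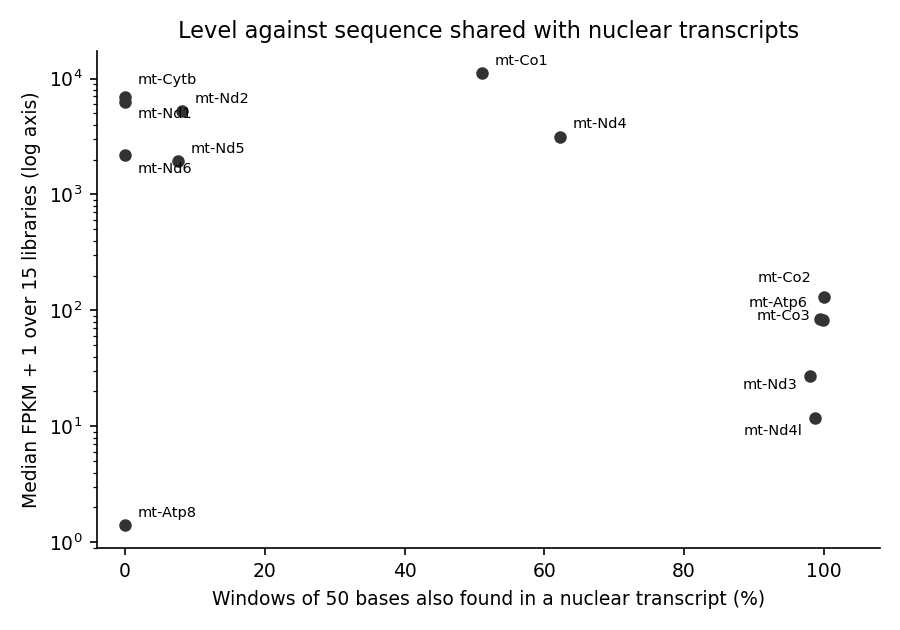
Median level over the 15 libraries other than WT ethanol library 2 (FPKM + 1, log axis) against the percent of each member's 50-base windows found in a nuclear transcript, 1 point per member. The 5 members at 98.0% or more lie between 10.7 and 129.3 FPKM, and mt-Atp8 is low with 0% shared.

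Recovered read totals per library ran from 9890475 in WT ethanol library 2 to 24768569, and the other 15 libraries had at least 19069903. Zfp36l1 itself was at 9.30 FPKM or more in all 8 WT libraries and at 1.76 FPKM or less in all 8 LKO libraries, as the labels have it. Hepatocyte markers summed to 42976 to 73742 FPKM over the 15 libraries and to 62185 in WT ethanol library 2. In that library the erythroid markers summed to 2160 FPKM against 100 to 286 elsewhere, the endothelial markers to 10.7 against 25.0 to 83.2, and the stellate markers to 10.9 against 34.8 to 145. The cholangiocyte markers summed to 8.62 against 1.15 to 4.76, and 2 non-polyadenylated or nuclear RNAs to 54.1 against 57.8 to 445. The Kupffer cell markers, at 91.3 against 50.7 to 301, and the leukocyte markers, at 94.2 against 28.1 to 135, lay within the range. In bulk tissue, fewer cells of a type and less RNA per cell cannot be told apart.

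The share of all gene reads that fell on the 13 members was 6.66, 5.57, 4.05 and 4.06% in WT control libraries 1 to 4 and 6.97, 22.5, 3.64 and 3.83% in WT ethanol libraries 1 to 4. It was 6.21, 4.70, 3.802 and 4.12% in LKO control and 6.31, 5.19, 4.75 and 4.49% in LKO ethanol. Of the 4 WT ethanol libraries, 3 lay within the range of the other groups or just past its ends, and library 2 lay far above it. The mean share was 5.09% ± 1.27 (SD, n = 4) in WT control, 9.24% ± 8.98 in WT ethanol, 4.71% ± 1.07 in LKO control and 5.18% ± 0.806 in LKO ethanol. Without library 2 the WT ethanol mean was 4.82% ± 1.87 (SD, n = 3), and the difference from WT control went from 4.153 to -0.272 percentage points. The difference of LKO ethanol from WT ethanol went from -4.055 to 0.370 points. The groups overlapped in every comparison, and none of these differences was larger than the spread within groups.

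Among the members, WT ethanol library 2 differed from the rest most in mt-Nd5 and mt-Nd6. mt-Nd6 was at 3506, 128406, 1601 and 2008 FPKM in WT ethanol libraries 1 to 4, and at 1829 to 3358 FPKM in WT control. In LKO control it was at 1777 to 2251 FPKM and in LKO ethanol at 1743 to 2576 FPKM. Library 2 was thus 36.6 times the highest of the 15 others, and mt-Nd6 was the highest of all genes there, while it ranked between 19 and 38 in the 15.

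mt-Nd5, which codes for a proton-pumping core subunit of complex I, was at 2367, 38292, 1305 and 1638 FPKM in WT ethanol libraries 1 to 4. It was at 1744 to 2568 FPKM in WT control, 1648 to 1985 in LKO control and 1318 to 2349 in LKO ethanol. Library 2 was 14.9 times the highest other library and mt-Nd5 ranked 2 among its genes.

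The pair took 13.6% of all gene reads in WT ethanol library 2 and 0.321 to 0.643% in the others. With mt-Nd5 and mt-Nd6 left out of both counts, the mitochondrial share there was 10.3%, against 3.33 to 6.40% in the 15, so it remained the highest. mt-Nd6 relative to mt-Nd5, taken as the ratio of their FPKM, was 3.35 in library 2 and 0.895 to 1.48 in the 15. These members lie next to each other on opposite strands, and whether reads were counted by strand is not given in the sources used here. Reads over the overlap shown above therefore cannot be assigned. If strand was not used, RNA from either strand over a gene was counted for that gene. The level of mt-Nd6 may then include RNA of the other strand along its whole length.

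Among the other 10 tested members, 7 were also higher in WT ethanol library 2 than in each of the 15, by smaller factors. mt-Nd3 was 2.77 times the highest other library, mt-Nd2 2.09 times, mt-Cytb 1.80 times, mt-Nd4 1.57 times, mt-Nd1 1.36 times, mt-Co3 1.22 times and mt-Co2 1.12 times. The remaining 3 were not raised: mt-Co1, at 13075 FPKM, was above 10 of the 15, mt-Atp6 above 8 and mt-Nd4l above 1. Among the nuclear copies, Gm28438 was at 1934 FPKM there against at most 139.2 elsewhere and Gm28439 at 299.9 against at most 51.3. Others were above all 15 libraries by less, with Gm13340 at 23.0 FPKM against at most 10.01, Gm13339 at 7.33 against 3.83, Gm29216 at 351 against 213.8, Gm28437 at 181 against 152 and Gm28661 at 237 against 229.

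Nuclear genes stood out there too. Chosen after their values were seen, Ndufa2, a nuclear-encoded complex I subunit, was at 3198 FPKM against at most 251, and Atp5e, a subunit of ATP synthase, was at 1759.6 against at most 133. Mbp, which codes for a myelin protein, was at 121 FPKM against at most 2.51. The part of these genes, of the shift in markers and of the lower read total in the mitochondrial values of this library was not tested.

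**Figure D3:**
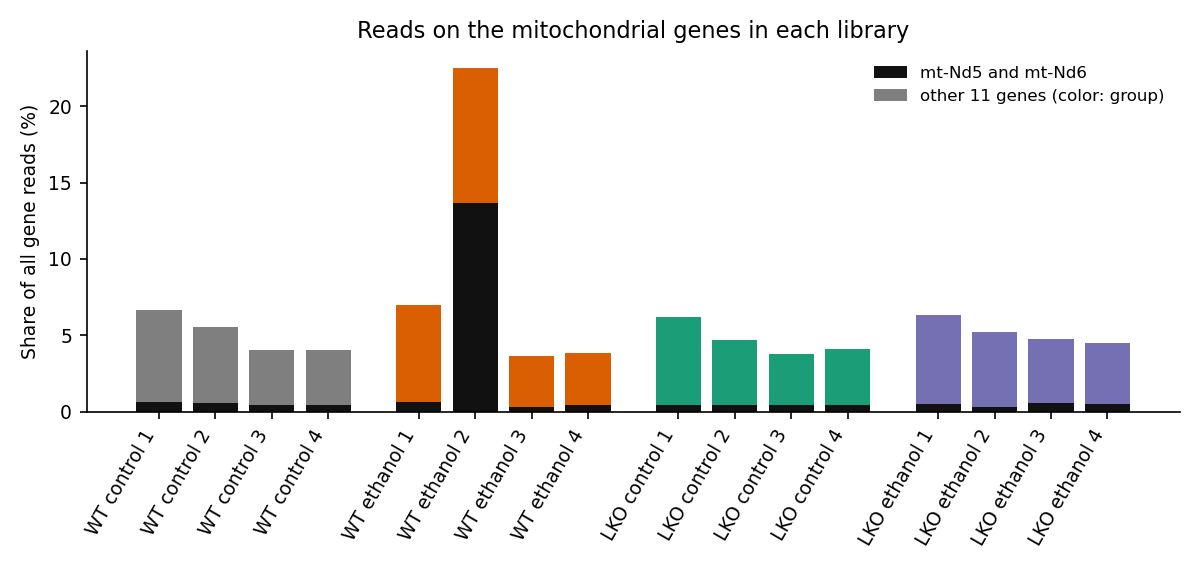
Percent of all gene reads that fell on the 13 members in each library, with mt-Nd5 and mt-Nd6 in black and the other 11 in the color of the group. WT ethanol library 2 reached 22.5%, of which 13.6 points were mt-Nd5 and mt-Nd6, and the other 15 libraries lay between 3.64 and 6.97%.

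The test between groups called none of the 12 members in any comparison. It was limma on log2(FPKM + 1) over 11298 genes, two-sided, with Benjamini-Hochberg adjustment and a call at an adjusted p under 0.05. In WT mice, ethanol against control diet gave 0 of 12 called beside 4.18% of all genes tested, and 1 member at an unadjusted p under 0.05. In LKO mice it gave 0 of 12 beside 0.425%, and 0 members at an unadjusted p under 0.05. On the control diet LKO against WT gave 0 of 12 beside 0.00885%, and with ethanol it gave 0 of 12 beside 0.0797%, with 0 and 1 members at an unadjusted p under 0.05. The interaction of genotype and diet gave 0 of 12 beside 0.0% of all genes, with 1 member at an unadjusted p under 0.05. limma's voom on the recovered reads also called 0 members in each of these 5 comparisons. With array weights, which weight each library by its fit, limma called 5 members lower with ethanol in WT, beside 38.4% of all genes, and turned the sign of 9 of the 12 there. That fit gave WT ethanol libraries 1 to 4 weights of 0.278, 0.0418, 5 and 1.06, so its values for the group rest mostly on library 3.

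The sizes of the differences, on the log2(FPKM + 1) scale, depended on WT ethanol library 2 wherever that group entered. For ethanol in WT mice the median over the 12 members was 0.14 beside -0.02 over all genes, with 9 of 12 members positive. Without library 2 the median was -0.14 beside 0.17 over all genes, with 2 of 12 positive. For LKO against WT on the ethanol diet the median was -0.13 beside -0.03 over all genes, with 4 of 12 positive, and without library 2 it was 0.26 beside -0.23 over all genes, with 12 of 12 positive. No member was called in either comparison without library 2, beside 9.27% and 0.206% of all genes.

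The differences in comparisons that do not use that group were the same with and without the library. For ethanol in LKO mice the median over members was 0.16 beside 0.06 over all genes, with 10 of 12 positive. For LKO against WT on the control diet it was -0.13 beside -0.10, with 11 of 12 members negative. That direction depended on the scaling: with median-of-ratios scaling over nuclear genes the median over all genes went from -0.10 to 0.01 and that over members from -0.13 to 0.02.

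mt-Nd6 showed the size of the effect of 1 library. Its difference for ethanol in WT was 1.37 (SE 0.909, adjusted p = 0.43, limma) with all libraries and -0.09 (SE 0.265, adjusted p = 0.861, limma) without library 2. For mt-Nd5 the values were 0.84 (SE 0.712) and -0.28 (SE 0.242). In LKO mice, where library 2 plays no part, the difference for ethanol was 0.14 for mt-Nd6 and 0.05 for mt-Nd5.

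**Figure D4:**
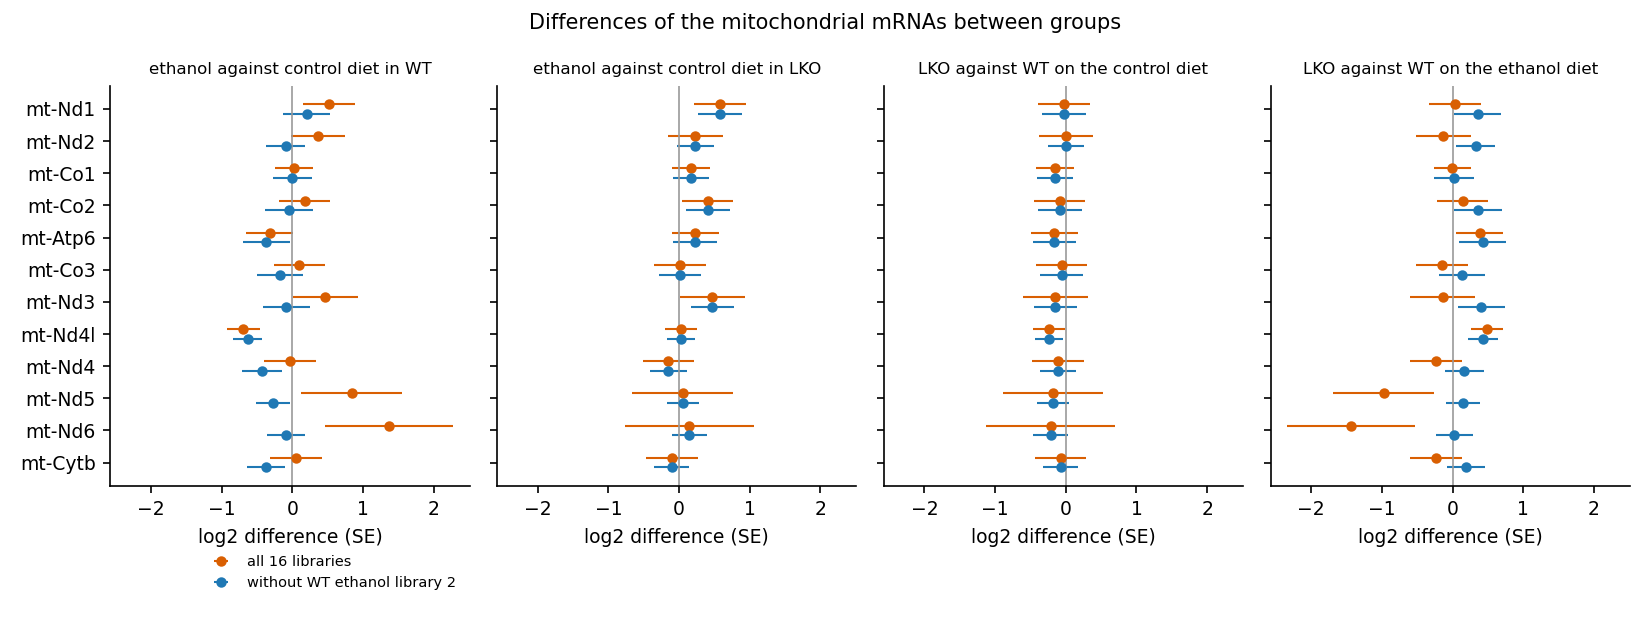
Difference between groups of each of the 12 tested members on the log2(FPKM + 1) scale, with its standard error, from the fit with all 16 libraries (orange) and without WT ethanol library 2 (blue), in 4 panels for the comparisons between groups, without the interaction. mt-Nd6 moves from 1.37 to -0.09 in the first panel, and the first and last panels, which use the WT ethanol group, differ between the fits.

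mt-Nd4l was the one member of 12 with groups that did not overlap, in 2 of the 4 comparisons. Of all genes tested, 10.1% lay apart for ethanol in WT and 2.69% between the genotypes with ethanol, the comparisons in which mt-Nd4l did. In the other comparisons 0 members lay apart, beside 12.3% of genes for ethanol in LKO and 9.25% between the genotypes on control diet. Its level was 17.8, 13.3, 13.1 and 10.02 FPKM in WT control and 9.52, 6.81, 8.60 and 6.76 FPKM in WT ethanol. In LKO control it was 15.2, 9.52, 11.9 and 8.86 FPKM, and in LKO ethanol 10.2, 11.2, 13.8 and 10.7 FPKM. All 4 WT ethanol libraries were thus below all 4 WT control and all 4 LKO ethanol libraries, while LKO control and LKO ethanol overlapped.

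Among all genes tested, 4.45% lay apart and lower with ethanol in WT, and 0.894% lay apart and higher in LKO than in WT on the ethanol diet. The difference of mt-Nd4l for ethanol in WT was -0.69 (SE 0.229, adjusted p = 0.0977, limma), which did not pass. Between LKO and WT on the ethanol diet it was 0.49 (SE 0.229, adjusted p = 0.417, limma), and the interaction was 0.72 (SE 0.324, adjusted p = 0.927, limma). Its levels rest on 20 to 103 reads per library. Its nuclear copy Gm10222 had a like order, with 13.2, 12.3, 11.7 and 9.47 FPKM in WT control against 8.21, 6.19, 6.02 and 8.37 in WT ethanol. Reads of mt-Nd4l and Gm10222 cannot be told apart over nearly their whole length, so this is no separate observation.

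mt-Nd1 had among the larger differences in both genotypes. Its level was 7439.9, 6443, 4795 and 4546 FPKM in WT control and 11646, 15872, 5003 and 4789.8 FPKM in WT ethanol. In LKO control it was 8063, 6224, 4408 and 4434 FPKM, and in LKO ethanol 11211, 9778, 7060.5 and 6334 FPKM. The groups overlapped in both genotypes. The difference for ethanol was 0.52 (SE 0.369, adjusted p = 0.461, limma) in WT and 0.58 (SE 0.369, adjusted p = 0.729, limma) in LKO. Without library 2 the value in WT was 0.20 (SE 0.331).

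Much of the spread within groups was shared by the members. The main axis of variation within groups over nuclear genes, which held 39.9% of that variance without WT ethanol library 2, put libraries 1 and 2 of each group on one side (side A) and libraries 3 and 4 on the other (side B). The labels name no batch. Both libraries of side A were above both of side B in all 4 groups for 8 of the 12 members and for the mitochondrial share of reads, with 1 WT ethanol library on side A. Of the nuclear genes kept, 6.87% did so. mt-Nd4 did so in 3 groups, and mt-Nd4l, mt-Nd5 and mt-Nd6 in 2.

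With a term for side and without WT ethanol library 2, limma called 2 members, 1 for ethanol in WT and 1 in LKO. The sides were taken from these same libraries, so the adjusted p-values of this fit may be too small. mt-Nd1 was higher with ethanol in LKO by 0.58 (SE 0.149, adjusted p = 0.0249, limma), beside 10.8% of all genes called. mt-Nd4l was lower with ethanol in WT, with a log2 difference of -0.605 (SE 0.194, adjusted p = 0.042, limma), beside 19.7% of all genes called. Within side A the difference of mt-Nd1 in LKO was 0.56 and within side B 0.60, with 2 libraries of each group on each side.

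Ratios compare members within each library. mt-Nd4 relative to mt-Cytb was nearly constant, between 0.416 and 0.479 over all 16 libraries. mt-Nd1 relative to mt-Cytb, a pair chosen after its values were seen and so given with no test, was 0.659, 0.730, 0.713 and 0.716 in WT control and 1.37, 0.783, 1.02 and 0.822 in WT ethanol. It was 0.730, 0.797, 0.761 and 0.639 in LKO control and 1.27, 1.41, 1.13 and 0.932 in LKO ethanol. All ethanol libraries of each genotype were above all control libraries of the same genotype, WT ethanol library 2 included, although that library was the lowest of its group.

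The mean ratio was 0.704 ± 0.0313 in WT control and 0.998 ± 0.268 in WT ethanol (SD, n = 4). It was 0.732 ± 0.0677 in LKO control and 1.19 ± 0.205 in LKO ethanol. Of nuclear genes, 2.18% had a ratio to mt-Cytb that lay apart and higher with ethanol in WT, and 4.65% did in LKO. The LKO and WT groups overlapped in this ratio on either diet.

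**Figure D5:**
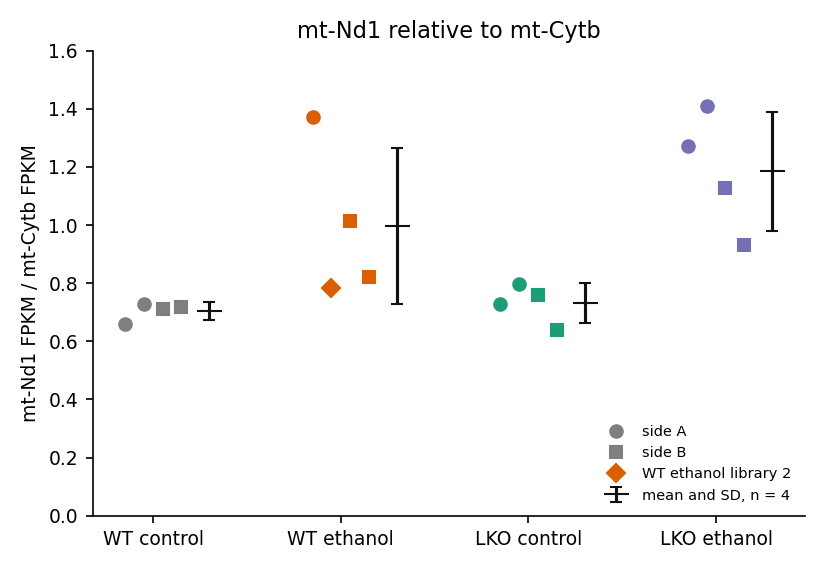
Ratio of mt-Nd1 FPKM to mt-Cytb FPKM in each library, with circles and squares for the sides of the main axis of within-group variation, a diamond for WT ethanol library 2, and bars for the mean and SD (n = 4). The control groups lie between 0.639 and 0.797 and the ethanol groups between 0.783 and 1.41, and within each genotype the diets do not overlap.

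Over all 66 pairs of the 12 members, the ratio lay apart between diets for 16 pairs (24.2%) in WT and 13 (19.7%) in LKO. Over all pairs of 10633 nuclear genes, 15.7% and 14% did. Between genotypes it lay apart for 0 pairs with the control diet, beside 7.53% of nuclear pairs, and for 2 with ethanol, beside 4.58%. Without WT ethanol library 2 the latter was 5 pairs (7.58%), beside 7.31% of nuclear pairs. mt-Nd1 was the raised member in 6 of the 16 and in 5 of the 13, and other members recurred too. mt-Atp6 and mt-Nd4l were each the lower member of several pairs in WT. mt-Nd3 relative to mt-Cytb was 0.00287 to 0.00355 in WT control and 0.003565 to 0.00562 in WT ethanol. In LKO it was 0.00255 to 0.00348 with the control diet and 0.00410 to 0.00594 with ethanol. Without WT ethanol library 2, 20 pairs (30.3%) lay apart in WT, mt-Nd1 being raised in 8, beside 23.6% of nuclear pairs. The pairs share members and are not independent, and the difference from nuclear pairs was not tested.

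Nuclear genes that act on mitochondrial DNA and RNA gave no calls with all libraries. Of the 10 genes listed for mitochondrial transcription 8 were tested and 0 were called in any of the 5 comparisons, and the same held for 11 tested replication genes, 22 genes of RNA processing and decay and 7 regulators of biogenesis. Of all genes, 4.18% were called for ethanol in WT and at most 0.425% in each other comparison, so few calls would be looked for in such short lists. Polrmt, the mitochondrial RNA polymerase, differed by 0.11 (SE 0.348) on the log2(FPKM + 1) scale with ethanol in WT, by 0.29 (SE 0.356) without WT ethanol library 2, and by -0.03 in LKO. Tfam, which packages mitochondrial DNA and activates its promoters, differed by -0.57 (SE 0.331) in WT and by -0.03 in LKO. Tfam was at 2.13 FPKM in WT ethanol library 2 and at 8.65 to 11.9 in the 15, and without that library its value in WT was -0.10 (SE 0.147).

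Of the other factors of transcription and RNA stability, the following 4 were not called, and their values in WT moved with library 2. Tfb2m, a transcription initiation factor, differed by -0.76 with ethanol in WT, by -0.02 without library 2 and by 0.21 in LKO. Tefm, an elongation factor, gave -0.61, 0.11 and 0.17 in the same order. Lrpprc and Slirp, partners that stabilise mitochondrial messenger RNAs, gave -0.34, 0.15 and 0.04 and 0.73, 0.07 and 0.27.

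Values for 5 factors of replication and biogenesis follow in the same order. Polg, the DNA polymerase, gave -0.08, 0.35 and 0.07, Twnk, the helicase, 0.38, 0.08 and 0.28, and Ssbp1, the single-strand binding protein, -0.33, 0.23 and 0.12. Ppargc1a, a coactivator of mitochondrial biogenesis, gave -0.12, 0.09 and -0.42, and the nuclear receptor Esrra gave 0.10, 0.44 and -0.14. Comparing LKO with WT on the ethanol diet, Tefm gave 1.002 (SE 0.494, adjusted p = 0.44, limma) with all libraries and 0.28 (SE 0.242) without library 2. Ppargc1a gave -0.63 (SE 0.285, adjusted p = 0.401, limma) and -0.84 (SE 0.272).

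Without WT ethanol library 2, 2 of the 22 genes of RNA processing and decay rose with ethanol in WT. Rexo2, an exonuclease that degrades very short RNAs in mitochondria, rose by 0.98 (SE 0.197, adjusted p = 0.00863, limma) and Fastk by 0.69 (SE 0.182, adjusted p = 0.0274, limma). Of all genes, 7.04% were called higher, so 2 of 22 is close to the share over all genes. For ethanol in LKO, with all libraries, Rexo2 differed by 0.40 (SE 0.411) and Fastk by 0.14 (SE 0.323), and neither was called. Fastk belongs to a family of mitochondrial RNA-binding proteins. Rexo2 was at 16.6 FPKM in library 2 and at 40.4 to 103 in the 15.

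With all libraries, the nuclear-encoded subunits of the complexes to which the members contribute were not called either. Of all genes, 4.18% were called for ethanol in WT and 0.425% in LKO. With ethanol in WT the median log2 difference was 0.17 over 35 complex I genes, 0.26 over 9 of complex III, -0.03 over 11 of complex IV and 0.04 over 15 of complex V. In LKO the medians were -0.05, -0.11, -0.05 and -0.03. Complex II, which has no mitochondrially encoded subunit, gave -0.51 in WT over 4 genes and -0.05 in LKO. Without library 2 the WT values were 0.00 for complex I, -0.15 for complex III, -0.02 for complex IV, 0.02 for complex V and -0.03 for complex II. These lay below the median over all genes given above for ethanol in WT without library 2.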

How the data were processed

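Liver RNA-seq libraries of 4 groups, 4 each, were grouped by the labels' genotype and diet. The deposited table gives FPKM per Ensembl gene ID; the submitters' processing notes name fastp, STAR 2.6.1, HTSeq, DESeq2 and the mm10 build, without their roles. All 16 columns were matched to samples by title. Symbols, lengths and transcript sequences came from GENCODE M21 (GRCm38).

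FPKM values came out as whole reads (within 0.02) in 100.0% of values, checked over 20520 genes detected in 4 or more libraries, and reads and totals were taken from this. Read handling of multiple matches and of strand is not given in the sources used here. The main test was limma 3.58.1 (R 4.3.3, lmFit and eBayes with trend) on log2(FPKM + 1), for the 11298 genes with FPKM of at least 1 in at least 4 libraries. A gene at a low level has its fold change understated by the pseudocount of 1. Python 3.11.15 with pandas 2.3.3 was used for tables and windows.

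Named genes were all members, a fixed set of factors of mitochondrial DNA and RNA, and genes of fixed lists that were called. The members and lists were chosen with earlier results of these data known. Ratios between members and the genes that stood out in WT ethanol library 2 were chosen after their values were seen. Alternatives were a pseudocount of 0.1, no filter, quantile and median-of-ratios scaling, scaling to reads outside chromosome M, array weights, voom, a side term without WT ethanol library 2, and leaving out each library. The scripts were tested on simulated data.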

Additional observations from a re-analysis of the deposited data

Results flagged for a closer look

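Among 72 groups of 4 libraries checked for a value far from the rest (a gap to the nearest value past Dixon's 95% critical share of the group's range), 4 values stood apart, and all were of WT ethanol library 2. Chance gives about 1 such value in 20 groups, but the values are not independent, since all are of 1 library and both ratios have mt-Nd6 as numerator, so the count itself was not tested. mt-Nd6 was at 128406 FPKM there against 1601 to 3506 in the other libraries of its group, and mt-Nd5 at 38292 against 1305 to 2367. The ratio of mt-Nd6 to mt-Cytb was 6.33 against 0.325 to 0.412, and that of mt-Nd6 to mt-Nd5 was 3.35 against 1.23 to 1.48.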

How the results depend on the processing

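The count of 0 called members held in all 5 comparisons with a pseudocount of 0.1, without the filter, with each scaling, with voom and on leaving out any 1 library. With array weights 5 members were called lower for ethanol in WT (mt-Atp6, mt-Nd4, mt-Nd4l, mt-Nd5 and mt-Cytb), beside 38.4% of all genes called, and with the side term and without WT ethanol library 2, 1 was called for ethanol in WT and 1 in LKO. On leaving out 1 library, the difference in mitochondrial share ranged from -0.272 to 6.02 percentage points for ethanol in WT and from 0.101 to 0.976 in LKO. For LKO against WT it ranged from -0.879 to 0.146 on the control diet (positive without WT control library 1) and from -5.92 to 0.370 on the ethanol diet. The difference in the ratio of mt-Nd1 to mt-Cytb, with alternatives added after seeing the data, ranged from 0.169 to 0.365 for ethanol in WT and from 0.379 to 0.539 in LKO. For LKO against WT on the control diet it ranged from 0.005 to 0.058. Without LKO control library 4 these groups touched without overlapping, with the lowest LKO and the highest WT value equal to 3 decimals. Calls over all genes for ethanol in WT were 292 higher and 180 lower, against 307 and 425 with median-of-ratios scaling. Depth limits mt-Atp8 and mt-Nd4l most. No paired analysis was run, because the labels do not say which libraries form pairs. Some control and ethanol libraries of a genotype have adjacent numbers in their titles, others do not, and whether adjacent numbers mark pairs is not given. Differences within such possible pairs were not tested.

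Of the 60 log2 differences of members, none was called with all libraries, and many changed sign: 68 of 480 values under other settings and 99 of 960 on leaving out 1 library, 21 of them without WT ethanol library 2. The values that changed sign follow, and the cause was not tested. With quantile normalization, for ethanol in WT, they were mt-Co1 -0.26 and mt-Cytb -0.14. With quantile normalization, for ethanol in LKO, they were mt-Nd4l -0.027. With quantile normalization, for LKO against WT on the control diet, they were mt-Nd2 -0.19 and mt-Co1 0.035. With quantile normalization, for LKO against WT on the ethanol diet, they were mt-Co1 0.42. With quantile normalization, for the interaction, they were mt-Nd2 0.17, mt-Co3 0.014, mt-Nd4 0.063 and mt-Cytb 0.068. With median-of-ratios scaling, for ethanol in WT, they were mt-Co1 -0.030. With median-of-ratios scaling, for ethanol in LKO, they were mt-Co3 -0.067, mt-Nd5 -0.029 and mt-Nd4l -0.042. With median-of-ratios scaling, for LKO against WT on the control diet, they were mt-Nd1 0.13, mt-Co2 0.062, mt-Co3 0.089, mt-Nd4 0.037 and mt-Cytb 0.076. With median-of-ratios scaling, for LKO against WT on the ethanol diet, they were mt-Co1 0.12. With median-of-ratios scaling, for the interaction, they were mt-Nd3 -0.031. Scaled to reads outside chromosome M, for ethanol in WT, they were mt-Nd4 0.039. Scaled to reads outside chromosome M, for LKO against WT on the control diet, they were mt-Nd2 -0.002. Scaled to reads outside chromosome M, for LKO against WT on the ethanol diet, they were mt-Nd1 -0.032. Scaled to reads outside chromosome M, for the interaction, they were mt-Nd1 -0.004 and mt-Nd3 -0.057. With array weights, for ethanol in WT, they were mt-Nd1 -0.19, mt-Nd2 -0.38, mt-Co1 -0.33, mt-Co2 -0.37, mt-Co3 -0.53, mt-Nd3 -0.49, mt-Nd5 -0.60, mt-Nd6 -0.49 and mt-Cytb -0.69. With array weights, for ethanol in LKO, they were mt-Co3 -0.19. With array weights, for LKO against WT on the control diet, they were mt-Nd1 0.033. With array weights, for LKO against WT on the ethanol diet, they were mt-Nd2 0.54, mt-Co1 0.26, mt-Co3 0.33, mt-Nd3 0.67, mt-Nd4 0.48, mt-Nd5 0.52, mt-Nd6 0.44 and mt-Cytb 0.45. With array weights, for the interaction, they were mt-Nd2 0.47, mt-Co3 0.34, mt-Nd4 0.59, mt-Nd5 0.79, mt-Nd6 0.68 and mt-Cytb 0.51. With the side term and without WT ethanol library 2, for ethanol in WT, they were mt-Nd2 -0.004, mt-Co3 -0.054, mt-Nd5 -0.26, mt-Nd6 -0.051 and mt-Cytb -0.29. With the side term and without WT ethanol library 2, for LKO against WT on the ethanol diet, they were mt-Nd2 0.24, mt-Co3 0.008, mt-Nd3 0.29, mt-Nd4 0.082, mt-Nd5 0.13 and mt-Cytb 0.11. With the side term and without WT ethanol library 2, for the interaction, they were mt-Nd2 0.23, mt-Co3 0.068, mt-Nd4 0.19, mt-Nd5 0.31, mt-Nd6 0.20 and mt-Cytb 0.18.

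On leaving out 1 library, 42 of the 60 changed sign at least once. For ethanol in WT the ranges were mt-Nd2 -0.10 to 0.64, mt-Co1 -0.17 to 0.17, mt-Co2 -0.043 to 0.39, mt-Co3 -0.18 to 0.32, mt-Nd3 -0.085 to 0.79, mt-Nd4 -0.43 to 0.24, mt-Nd5 -0.28 to 1.35, mt-Nd6 -0.093 to 2.02 and mt-Cytb -0.37 to 0.31. For ethanol in LKO the ranges were mt-Co3 -0.14 to 0.23, mt-Nd4 -0.29 to 0.014, mt-Nd5 -0.050 to 0.23, mt-Cytb -0.24 to 0.071 and mt-Nd4l -0.069 to 0.17. For LKO against WT on the control diet the ranges were mt-Nd1 -0.20 to 0.11, mt-Nd2 -0.12 to 0.11, mt-Co1 -0.30 to 0.000, mt-Co2 -0.29 to 0.12, mt-Atp6 -0.38 to 0.045, mt-Co3 -0.28 to 0.16, mt-Nd3 -0.39 to 0.061, mt-Nd4 -0.28 to 0.060 and mt-Cytb -0.25 to 0.087. For LKO against WT on the ethanol diet the ranges were mt-Nd1 -0.22 to 0.36, mt-Nd2 -0.40 to 0.33, mt-Co1 -0.11 to 0.19, mt-Co2 -0.073 to 0.36, mt-Co3 -0.35 to 0.13, mt-Nd3 -0.47 to 0.41, mt-Nd4 -0.51 to 0.17, mt-Nd5 -1.48 to 0.15, mt-Nd6 -2.08 to 0.026 and mt-Cytb -0.49 to 0.19. For the interaction the ranges were mt-Nd1 -0.20 to 0.38, mt-Nd2 -0.40 to 0.33, mt-Co1 -0.001 to 0.34, mt-Co3 -0.30 to 0.19, mt-Nd3 -0.32 to 0.56, mt-Nd4 -0.39 to 0.28, mt-Nd5 -1.29 to 0.33, mt-Nd6 -1.87 to 0.24 and mt-Cytb -0.41 to 0.27.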
